A study of Mus musculus with 14 samples.

Results

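Heat shock chaperones of the cytosol were followed across the livers of female mice that lacked Mdr2 and IL6, lacked Mdr2 alone or were wild type. The genes are Hspb1, Hspb8, Hsp90aa1, Hsp90ab1, Hspa8, Hspa1b, Hsph1, Dnaja1 and Dnajb1, together with Hsf1, which encodes the main heat shock transcription factor. The 10 genes were taken by name, each read from its single-gene probe of highest mean signal, and 7 of the 10 had such a probe among the 19938 genes tested. Hspa1b was covered only by a probe it shares with Hspa1a, and no probe in the annotation used here carried Hsp90ab1 or Hsf1, which are not analysed here.

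The 3 genotypes were Mdr2-KO/IL6-KO with 6 arrays, Mdr2-KO with 5 arrays and Wild Type with 3 arrays, all from mice aged 14 months. The knockout tissue is labelled as free of tumour, and every double-knockout liver also carries the Mdr2 deletion. Wild Type is labelled C57BL/6, while no strain is given for the knockouts, so strain and genotype cannot be told apart. Mdr2 is now called Abcb4 and encodes the transporter that delivers phospholipid to bile, and its loss in mice is a model of chronic bile duct injury. IL6 is a cytokine under which hepatocytes make acute phase proteins. Signals are log2 values from an Affymetrix gene array, 1 value per probe and array, and the labels do not say that each array is a separate mouse, so the spread behind each p-value may be technical in part.

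Cytosolic chaperones bind unfolded or newly made proteins and keep them from aggregating. Small heat shock proteins hold unfolded clients, J-domain proteins pass clients to HSP70 and stimulate its ATPase, HSP110 proteins exchange its nucleotide, and HSP90 with its co-chaperones matures kinases and steroid receptors. Under heat or other protein stress HSF1 binds inverted repeats of the unit GAA, called heat shock elements, upstream of many of these genes.

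Promoters are printed for the members that passed a test between genotypes and have a RefSeq window (build GRCm38.p6), which spans 250 bases before to 50 bases after the annotated start. Each runs 5′ to 3′ along the gene's strand in lower case, with capitals marking heat shock units in the patterns GAANNTTC or TTCNNGAA, either of which reads the same on both strands. Hspb1 is at chr5:135887669-135887968 on the plus strand, Hspb8 at chr5:116422815-116423114 on the minus strand, Hsph1 at chr5:149636287-149636586 on the minus strand and Dnaja1 at chr4:40722218-40722517 on the plus strand.
Hspb1: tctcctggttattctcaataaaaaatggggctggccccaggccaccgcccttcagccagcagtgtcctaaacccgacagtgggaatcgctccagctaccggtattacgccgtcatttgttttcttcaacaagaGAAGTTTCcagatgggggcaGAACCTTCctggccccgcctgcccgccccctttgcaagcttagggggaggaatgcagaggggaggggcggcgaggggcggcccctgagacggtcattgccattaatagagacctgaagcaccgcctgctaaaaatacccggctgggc
Hspb8: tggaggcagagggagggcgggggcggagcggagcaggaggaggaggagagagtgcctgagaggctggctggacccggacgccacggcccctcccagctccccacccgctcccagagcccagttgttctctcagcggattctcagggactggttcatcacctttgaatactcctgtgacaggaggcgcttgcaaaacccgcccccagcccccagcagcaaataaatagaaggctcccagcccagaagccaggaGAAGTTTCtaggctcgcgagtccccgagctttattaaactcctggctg
Hsph1: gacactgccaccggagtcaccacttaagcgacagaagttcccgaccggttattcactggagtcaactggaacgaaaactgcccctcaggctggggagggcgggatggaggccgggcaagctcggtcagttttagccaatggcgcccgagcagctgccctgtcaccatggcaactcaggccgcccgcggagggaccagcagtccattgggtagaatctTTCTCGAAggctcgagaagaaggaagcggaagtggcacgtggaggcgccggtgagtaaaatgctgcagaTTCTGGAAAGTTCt
Dnaja1: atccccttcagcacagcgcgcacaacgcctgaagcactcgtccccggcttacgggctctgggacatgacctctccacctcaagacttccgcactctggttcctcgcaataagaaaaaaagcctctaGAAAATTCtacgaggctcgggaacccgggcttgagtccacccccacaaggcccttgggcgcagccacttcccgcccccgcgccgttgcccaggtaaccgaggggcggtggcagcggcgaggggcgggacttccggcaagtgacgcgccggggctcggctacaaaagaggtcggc

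The single Hspb1 window holds the 2-unit pattern at bases -117 and -97 from the start, and the single Hspb8 window at +3. Dnaja1 has 3 windows for different annotated starts, of which the first listed, printed here, holds the pattern at -124 and the other 2 hold none. In the first of 2 Hsph1 windows, the printed one, it stands at -33, +37 and +42, and the last pair overlap in the run TTCTGGAAAGTTC, which holds 3 alternating units. The second Hsph1 window overlaps the first and holds the same letters at -54, +16 and +21 from its own start. Both starts lie inside the annotated span of Hsph1, which reaches chr5:149636498, and all the marked Hsph1 units lie within that span. The table holds windows for 6 of the 10 genes, and 5 of these (Hspb1, Hspb8, Hspa1b, Hsph1 and Dnaja1) carry the 2-unit pattern in at least 1 window, against 15.1% of all 32817 promoter windows. Genes with several windows had more than 1 chance of a match, and Dnajb1 had no match in its windows. A run of 3 alternating units, searched on both strands, is in Hsph1 alone among these genes, against 0.603% of all windows. A TATAAA run was found in none of these windows and in 13.6% of all windows.

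The values of all 14 arrays had medians between 6.15 and 6.24, and the 95th percentile of 1027 olfactory receptor genes, taken here as background, was 5.48. All 7 measured chaperones lay above this level on every array. Abcb4 averaged 9.05 ± 0.20 in Mdr2-KO/IL6-KO, 9.01 ± 0.19 in Mdr2-KO and 10.36 ± 0.03 in Wild Type (SD; n = 6, 5 and 3), lower in every knockout array than in any Wild Type array, although where its probe lies relative to the deletion is not given in the sources used here. Il6 stayed under background in all 3 groups and gives no check of its deletion. The 7 measured hepatocyte markers averaged 12.34 to 12.68 per array in Mdr2-KO/IL6-KO, 12.52 to 12.69 in Mdr2-KO and 12.36 to 12.52 in Wild Type. Mdr2-KO/IL6-KO array 2 and Mdr2-KO array 3 stand apart by 5 neutrophil markers, whose mean was 7.69 and 9.04 there, against 5.63 to 5.97 on the other arrays, so results are also given without these 2 arrays. In tissue of this kind fewer cells of a type and less RNA per cell cannot be told apart.

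**Figure D1:**
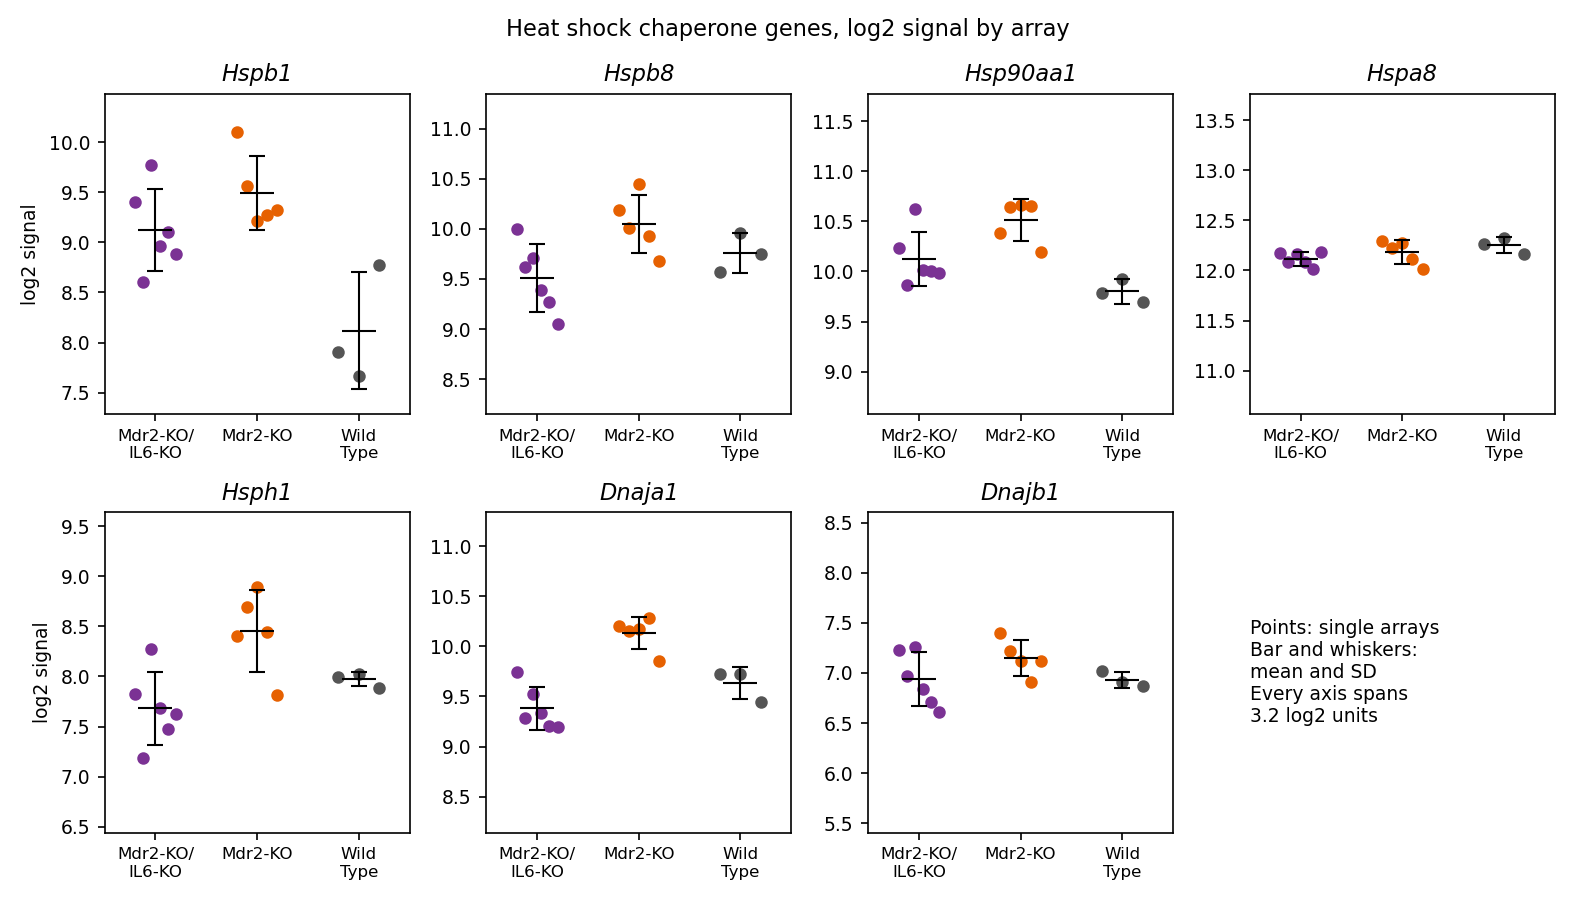
Log2 signal of the 7 measured heat shock chaperone genes on each array, by genotype; points are arrays, the bar is the group mean and the whiskers are 1 SD, and every vertical axis spans the same number of log2 units. Hspb1 and Hsp90aa1 are lowest in Wild Type, Hsph1 and Dnaja1 are highest in Mdr2-KO, and Hspa8 barely moves (group means of 12.11 to 12.25).

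In Mdr2-KO livers 3 of the 7 chaperones were higher than in Wild Type, and none was lower. They were Hspb1, a small heat shock protein also known as HSP27 in human, by 2.59-fold, Hsp90aa1, the stress-inducible cytosolic HSP90, by 1.63-fold, and Dnaja1, a J-domain partner of HSP70, by 1.42-fold. On the probes used, the arrays of the 2 genotypes did not overlap for any of the 3. A second Dnaja1 probe overlapped and did not pass, with a log2 fold change of 0.13. Over all genes 8.89% were called higher and 12.1% lower in this comparison, and 10.3% had all Mdr2-KO arrays above all Wild Type arrays. The split of 42.3% higher among the calls became 50.4% after quantile normalization and 49.5% after centring each array on its median. The median log2 fold change of the 7 genes was 0.48, against -0.07 over all genes.

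Among the small heat shock proteins, Hspb1 read 10.10, 9.56, 9.21, 9.27 and 9.32 in Mdr2-KO, against 7.91, 7.67 and 8.77 in Wild Type. The lowest Mdr2-KO array thus lay above the highest Wild Type array, which itself stood well above the other two. The log2 fold change was 1.37 (SE 0.27, 95% confidence interval 0.80 to 1.95, limma adjusted p = 0.00299), and a second Hspb1 probe gave 1.36 in a fit over every probe. Both probes read nearly alike in every group, and where each lies is not given in the sources used here. They may therefore not be independent. Hspb8, which works with Bag3 in clearing misfolded proteins, read 10.19, 10.01, 10.45, 9.93 and 9.68 in Mdr2-KO, against 9.57, 9.96 and 9.75 in Wild Type. Those ranges overlapped, and the difference of 0.29 (SE 0.19, limma adjusted p = 0.272) did not pass.

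Hsp90aa1 read 10.38, 10.64, 10.66, 10.65 and 10.19 in Mdr2-KO, against 9.78, 9.92 and 9.69 in Wild Type. Every Mdr2-KO array was above every Wild Type array, with array 5 the closest. The log2 fold change was 0.71 (SE 0.15, interval 0.39 to 1.02, limma adjusted p = 0.0044). Its other 2 probes, fitted with all probes, gave 0.68 and 0.70, and where each probe lies is not given in the sources used here.

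Hspa8, the constitutive HSP70 of the cytosol, read 12.29, 12.22, 12.27, 12.11 and 12.01 in Mdr2-KO, against 12.26, 12.32 and 12.16 in Wild Type. The 2 groups overlapped, with a difference of -0.07 (SE 0.07, interval -0.23 to 0.09, limma adjusted p = 0.518). Hsph1, an HSP110 protein that recharges HSP70 with ATP, read 8.40, 8.69, 8.89, 8.44 and 7.81 in Mdr2-KO, against 7.99, 8.02 and 7.88 in Wild Type. Only Mdr2-KO array 5 lay below the Wild Type arrays, and the difference of 0.48 (SE 0.22, interval 0.01 to 0.95, limma adjusted p = 0.124) did not pass. It was 0.37 to 0.64 with single arrays left out (adjusted p of 0.0311 to 0.302) and passed only without that array, while without the 2 arrays of high neutrophil markers it was 0.37 with an adjusted p of 0.182.

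Dnaja1 read 10.20, 10.15, 10.17, 10.28 and 9.85 in Mdr2-KO, against 9.72, 9.72 and 9.44 in Wild Type. Here too the groups did not overlap, and the log2 fold change was 0.50 (SE 0.12, interval 0.24 to 0.77, limma adjusted p = 0.0112). A second Dnaja1 probe gave 0.13 (limma adjusted p = 0.451) in a fit over every probe, so the 2 probes disagree on this comparison. On that probe the groups overlapped, at 8.86 to 9.29 in Mdr2-KO and 8.72 to 9.17 in Wild Type. RefSeq lists a pseudogene, Dnaja1-ps, and which copy each probe reads is not given in the sources used here. Without Wild Type array 3 the Dnaja1 difference was 0.41 with an adjusted p of 0.0712. Dnajb1, the heat-inducible J-domain protein also called HSP40, read 7.40, 7.22, 7.12, 6.91 and 7.12 in Mdr2-KO, against 7.02, 6.91 and 6.87 in Wild Type, and its difference of 0.22 (SE 0.14, limma adjusted p = 0.255) did not pass.

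In the double knockout, Hspb1 alone of the 7 passed against Wild Type, higher by 2-fold. Over all genes 6.96% were called higher and 5.33% lower. The median log2 fold change of the 7 was -0.14, against -0.02 over all genes. The Wild Type arrays are the same as those set against Mdr2-KO, so the 2 comparisons are not independent.

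Hspb1 ranged over 8.60, 9.03 and 9.77 (lowest, median and highest) in Mdr2-KO/IL6-KO, against 7.67, 7.91 and 8.77 in Wild Type. Mdr2-KO/IL6-KO array 2, at 8.60, was the only one below the highest Wild Type array. The log2 fold change was 1.0 (SE 0.26, interval 0.44 to 1.56, limma adjusted p = 0.0204). It was 0.90 with an adjusted p of 0.0919 without Wild Type array 1 and 0.78 with an adjusted p of 0.108 without Wild Type array 2.

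Hsp90aa1 ranged over 9.86, 10.01 and 10.62 in Mdr2-KO/IL6-KO, against 9.69, 9.78 and 9.92 in Wild Type. The double-knockout array at 9.86 lay inside the Wild Type range, and the difference of 0.32 (SE 0.14, interval 0.01 to 0.63, limma adjusted p = 0.173) did not pass. Hsph1 differed by -0.29 (SE 0.21, interval -0.74 to 0.16, limma adjusted p = 0.449) and Dnaja1 by -0.25 (SE 0.12, interval -0.50 to 0.01, limma adjusted p = 0.216). The remaining members gave -0.25 for Hspb8, -0.14 for Hspa8 and 0.00 for Dnajb1, with limma adjusted p-values of 0.452, 0.253 and 0.993. Their groups overlapped on every one of these genes.

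Set directly against Mdr2-KO, the double knockout had 3 of the 7 chaperones lower and none higher. These were Hsph1 by 1.7-fold, Dnaja1 by 1.68-fold and Hspb8 by 1.46-fold. All 7 fold changes were negative. The Mdr2-KO arrays are those set against Wild Type above, so these comparisons share them. In this comparison 3.72% of all genes were called lower and 5.04% higher, a split of 57.6% higher among the calls that became 44.2% after quantile normalization and 47.6% after centring each array on its median. The median of the 7 was -0.39, against 0.06 over all genes. Of these 3 calls Dnaja1 alone remained without the 2 arrays of high neutrophil markers, where 687 genes of all tested passed in place of 1746.

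Dnaja1 ranged over 9.20, 9.30 and 9.74 in Mdr2-KO/IL6-KO, against 10.20, 10.15, 10.17, 10.28 and 9.85 in Mdr2-KO. No double-knockout array reached the lowest Mdr2-KO array, a separation in this direction that 2.94% of all genes had. The log2 fold change was -0.75 (SE 0.10, interval -0.97 to -0.53, limma adjusted p = 0.00102), and it lay between -0.82 and -0.71 when any single array was left out. Without the 2 arrays of high neutrophil markers it was -0.72 with an adjusted p of 0.00652. The second Dnaja1 probe was lower too, at -0.49 (limma adjusted p = 0.0113 over every probe).

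Hsph1 ranged over 7.19, 7.65 and 8.27 in Mdr2-KO/IL6-KO, against 8.40, 8.69, 8.89, 8.44 and 7.81 in Mdr2-KO. The groups crossed at Mdr2-KO array 5 and at the highest double-knockout arrays. The log2 fold change was -0.77 (SE 0.18, interval -1.16 to -0.38, limma adjusted p = 0.0194). The lowest Hsph1 value of the double knockout and the highest of Mdr2-KO came from the 2 arrays of high neutrophil markers, and without both the difference was -0.56 with an adjusted p of 0.082. Without Mdr2-KO array 3 alone it was -0.66 with an adjusted p of 0.0512. The part of those cells in the difference was not tested.

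Hspb8 had a lowest value of 9.05, a median of 9.51 and a range of 0.95 in Mdr2-KO/IL6-KO, against 10.19, 10.01, 10.45, 9.93 and 9.68 in Mdr2-KO. The ranges overlapped, and the log2 fold change of -0.54 (SE 0.16, interval -0.88 to -0.21) had a limma adjusted p of 0.0454. That call is at the edge of the threshold and was lost when any of 9 single arrays was left out. Without the 2 arrays of high neutrophil markers it was -0.47 with an adjusted p of 0.131.

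Hsp90aa1 differed by -0.39 between the knockouts (SE 0.12, interval -0.65 to -0.13, limma adjusted p = 0.0602), just short of the threshold. With single arrays left out its adjusted p ran from 0.0122 to 0.132, under the threshold only without Mdr2-KO/IL6-KO array 3 (0.0122) or Mdr2-KO array 5 (0.0307). Without the 2 arrays of high neutrophil markers the difference was -0.30 with an adjusted p of 0.208. Hspb1 differed by -0.37 (SE 0.22, interval -0.85 to 0.10, limma adjusted p = 0.277), an interval that also holds 0. Dnajb1 lay between 6.61 and 7.26 in Mdr2-KO/IL6-KO, against 6.91 to 7.40 in Mdr2-KO, and Hspa8 between 12.01 and 12.18, against 12.01 to 12.29. Dnajb1 differed by -0.22 (interval -0.46 to 0.03) and Hspa8 by -0.07 (interval -0.20 to 0.06), with limma adjusted p-values of 0.22 and 0.468.

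**Figure D2:**
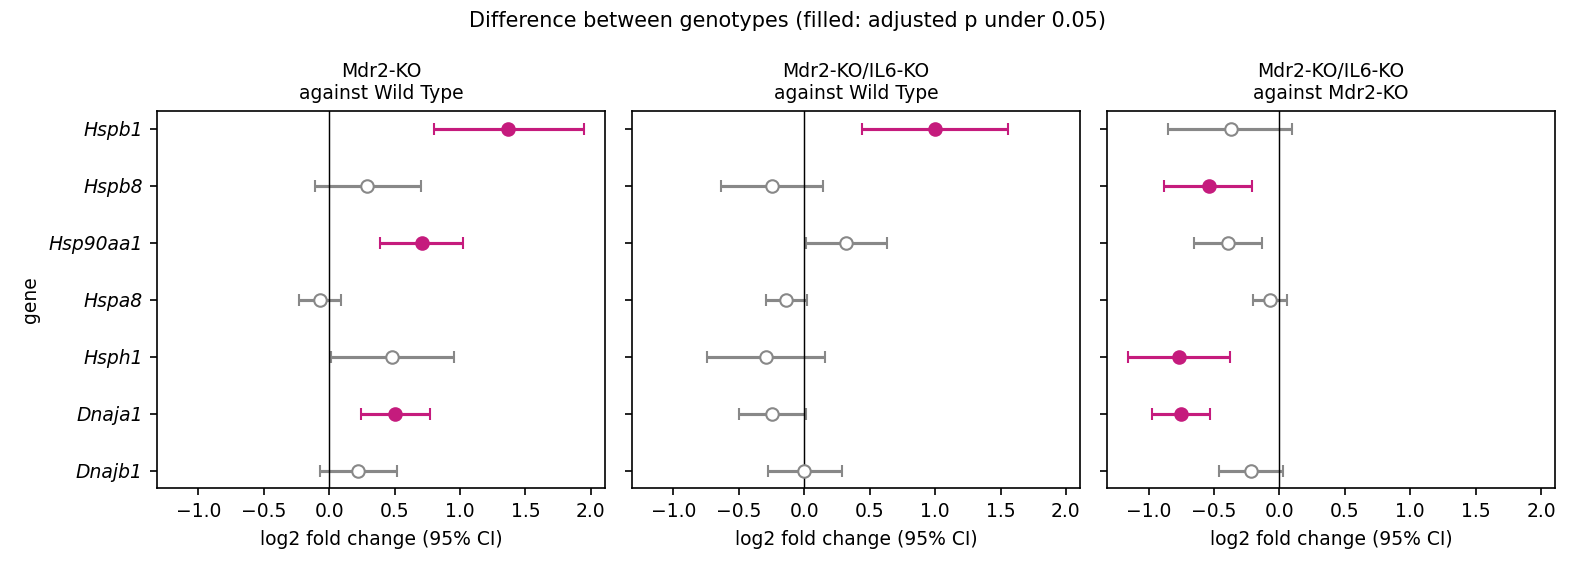
Log2 fold change of each measured chaperone in the 3 comparisons, with its 95% confidence interval along the horizontal axis; filled points have an adjusted p under 0.05 over all genes tested. Hspb1 is filled in both comparisons with Wild Type (1.37 and 1.0), and Dnaja1, Hsph1 and Hspb8 are filled to the left of 0 between the knockouts (-0.75, -0.77 and -0.54).

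The order of the group means thus differed between members. Hspb1 and Hsp90aa1 ran Mdr2-KO, Mdr2-KO/IL6-KO, Wild Type from high to low, and neither gene passed between the 2 knockouts. For Hsp90aa1 the lower neighbours, Mdr2-KO/IL6-KO and Wild Type, did not pass either, so no pair of neighbours in its order passed. Dnaja1, Hsph1 and Hspb8 ran Mdr2-KO, Wild Type, Mdr2-KO/IL6-KO. For Dnaja1 the lower neighbours, Mdr2-KO/IL6-KO and Wild Type, did not pass the test, and for Hsph1 and Hspb8 neither pair of neighbours passed. No pair of genotypes passed for Hspa8 or Dnajb1.

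Seen array by array, the double-knockout arrays 1 to 6 had 5, 0, 4, 2, 2 and 2 of the 7 chaperones above all Wild Type arrays and 1, 3, 1, 5, 5 and 4 below all of them. More members thus lay below than above on arrays 2, 4, 5 and 6. Mdr2-KO arrays 1, 2 and 3 each had 6 above and 0 below, array 4 had 4 above and 1 below, and array 5 had 4 above and 2 below. The share of all genes beyond all Wild Type arrays was not computed for single arrays. These counts are therefore no result about the members. The median difference of the 7 genes from the Wild Type mean lay between -0.32 and 0.30 on the double-knockout arrays, and was 0.47, 0.52, 0.69, 0.47 and 0.19 on the Mdr2-KO arrays. Double-knockout array 3 was the highest of its group for Hspb1, Hsp90aa1, Hsph1 and Dnajb1, and array 2 the lowest for Hspb1, Hsp90aa1 and Hsph1. Mdr2-KO array 5 was the lowest of its group for Hspb8, Hsp90aa1, Hspa8, Hsph1 and Dnaja1. Wild Type array 3 was the lowest of its group for Hsp90aa1, Hspa8, Hsph1, Dnaja1 and Dnajb1 and the highest for Hspb1. It also had the lowest weight of all arrays, 0.43, in the fit with array weights. Over all 14 arrays the SD was 0.66 for Hspb1, 0.48 for Hsph1, 0.39 for Dnaja1, 0.37 for Hspb8, 0.35 for Hsp90aa1, 0.22 for Dnajb1 and 0.10 for Hspa8.

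**Figure D3:**
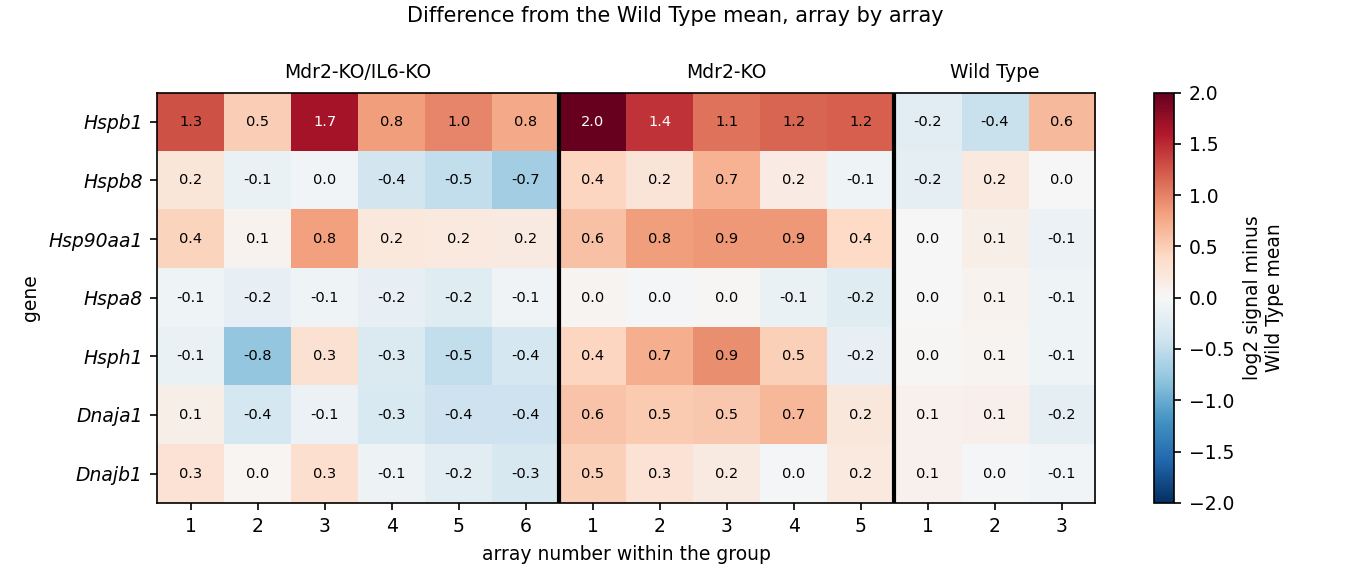
Difference of each chaperone's log2 signal from its Wild Type mean on every array; rows are genes, columns are arrays grouped by genotype, and colour runs from blue (lower) to red (higher). The Hspb1 row is red in all knockout arrays, while Dnaja1 is red in all 5 Mdr2-KO arrays and blue in all double-knockout arrays but array 1.

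Of the members, Hspb1, Hspb8 and Hsph1 lie on chromosome 5, which also holds Abcb4 and Il6. They are 107.5 to 140.7 Mb from Abcb4 and 86.4 to 119.6 Mb from Il6 in GRCm38.p6. Hspb1 spans chr5:135887919-135889563, Hspb8 chr5:116408491-116422864 and Hsph1 chr5:149616843-149636498. The others lie elsewhere, with Hsp90aa1 at chr12:110691036-110696395, Hspa8 at chr9:40801276-40805202, Dnaja1 at chr4:40722468-40734965 and Dnajb1 at chr8:83608175-83612653. These are the places of the genes, and where their probes lie is not given in the sources used here. Whether flanking DNA of another strain moved with the deletions was not tested.

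Of the 3 members with no probe of their own, only Hspa1b was reached by a shared probe. The probe common to Hspa1a and Hspa1b, the near-identical heat-inducible HSP70 genes, averaged 7.63 ± 0.06 in Mdr2-KO/IL6-KO, 7.63 ± 0.14 in Mdr2-KO and 7.72 ± 0.05 in Wild Type (SD; n = 6, 5 and 3). In the fit over every probe it differed by -0.09 in each knockout against Wild Type (limma adjusted p = 0.531 for the double knockout and 0.409 for Mdr2-KO) and by 0.00 between the knockouts. A probe of Hspa1a alone averaged 6.46 in Mdr2-KO/IL6-KO, 6.41 in Mdr2-KO and 6.32 in Wild Type and passed in no comparison. The inducible HSP70 pair therefore had no detected difference on these arrays. A probe that Hspa8 shares with the small nucleolar RNA genes Snord14c and Snord14d averaged 9.56 ± 0.14 in Mdr2-KO/IL6-KO, 10.09 ± 0.39 in Mdr2-KO and 9.73 ± 0.09 in Wild Type, and its difference between the knockouts was -0.52 (limma adjusted p = 0.038 over every probe), whereas the 3 probes of Hspa8 alone gave -0.08, -0.07 and -0.04. A probe shared by Dnaja1 and the microRNA gene Mir207 ran the other way from Dnaja1 between the knockouts, at 0.17 (limma adjusted p = 0.169).

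The wider chaperone system was read from 10 lists with 101 genes, of which 99 were measured. Against Wild Type, Mdr2-KO had 24 of these higher and 9 lower, and the double knockout had 7 higher and 5 lower. Between the knockouts 2 were higher and 10 lower in the double knockout. As shares of the 99 genes, 24.2% were higher and 9.09% lower in Mdr2-KO against Wild Type, beside 8.89% and 12.1% of all genes. In the double knockout against Wild Type they were 7.07% and 5.05%, near the 6.96% and 5.33% of all genes and so no result about these lists. Between the knockouts they were 2.02% and 10.1%, beside 5.04% and 3.72% of all genes. The median log2 fold changes were 0.08, 0.03 and -0.04, against -0.07, -0.02 and 0.06 over all genes. Without Wild Type array 3 the counts against Wild Type were 17 in place of 33 for Mdr2-KO and 6 in place of 12 for the double knockout, which reached 21 without its array 6. The count between the knockouts ran from 2 to 15 when single arrays were left out, and without the 2 arrays of high neutrophil markers it was 1, the prefoldin subunit Pfdn6, in place of 12. Of the calls named from these lists, those of Nudc, Ppid, Vbp1, Pfdn1, Hspa4l, Bag1, Dnajb4, Lonp1, Hyou1 and Pdia6 in Mdr2-KO against Wild Type held whichever single array was left out. So did those of Unc45a, Pfdn1 and Hspd1 in the double knockout against Wild Type and of Pfdn6 and Sdf2l1 between the knockouts. Every other call named from the lists was lost without at least 1 single array.

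Counts of single lists are to be read beside the all-gene shares above, and those of the double knockout against Wild Type are no result about a list. The HSP90 co-chaperones, which load and time the HSP90 cycle, had 5 of 16 higher and 2 lower in Mdr2-KO than in Wild Type. The 12.5% lower here, and the 10% higher among exchange factors and adaptors below, are near the 12.1% and 8.89% of all genes. Fkbp4, an immunophilin of steroid receptor complexes, differed by 0.53 (limma adjusted p = 0.0185), and Nudc by 0.45 (limma adjusted p = 0.00405). Ppid, a cyclophilin-type immunophilin, went the other way at -0.74 (limma adjusted p = 0.00347). Against Wild Type the double knockout had 3 higher and 1 lower, led by Ahsa2 at -0.43 (limma adjusted p = 0.0159) and the myosin chaperone Unc45a at 0.39 (limma adjusted p = 0.00132). Between the knockouts 3 were lower, namely Chordc1 at -0.48, Fkbp4 at -0.43 and Nudc at -0.29 (limma adjusted p = 0.0218, 0.0385 and 0.0348), and none of the 3 calls held without the 2 arrays of high neutrophil markers.

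The chaperonin TRiC, which folds actin and tubulin, and prefoldin, which delivers them, had 7 of 14 subunits higher and 2 lower in Mdr2-KO than in Wild Type. Vbp1, a prefoldin subunit, differed by 0.68, Cct8 by 0.46 and Pfdn1 by 0.44 (limma adjusted p = 0.00409, 0.00866 and 0.00108). In the double knockout 3 were higher and 1 lower than in Wild Type, with Cct3 at 0.42, Pfdn1 at 0.33 and Cct2 at 0.28 (limma adjusted p = 0.0254, 0.00574 and 0.0126). Between the knockouts 3 were lower and none higher, Pfdn6 at -0.48, Vbp1 at -0.47 and Tcp1 at -0.34 (limma adjusted p = 0.00379, 0.0244 and 0.0196), of which Pfdn6 kept its call without the 2 arrays of high neutrophil markers.

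Of the HSP70 side, 2 of 8 other HSP70 and HSP110 genes were higher in Mdr2-KO than in Wild Type. Hspa4l, an HSP110 relative of Hsph1, averaged 7.94 in Mdr2-KO and 7.32 in Wild Type (0.62, limma adjusted p = 0.00275), and Hspa2 differed by 0.42 (limma adjusted p = 0.0346). Hspa4l was lower in the double knockout than in Mdr2-KO (-0.36, limma adjusted p = 0.0371), and in the double knockout against Wild Type the largest of the 8 was Hspa2 at 0.32 (limma adjusted p = 0.116). The exchange factor Bag1 was the 1 gene of 10 called among exchange factors and adaptors, at 0.37 in Mdr2-KO against Wild Type and at -0.23 for the double against the single knockout (limma adjusted p = 0.0041 and 0.0357), and Bag2 gave 0.21 in the double knockout against Wild Type (limma adjusted p = 0.123). The differences of Hspa4l and Bag1 between the knockouts did not pass without the 2 arrays of high neutrophil markers.

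Of 11 other J-domain genes, none was higher and 2 were lower in Mdr2-KO than in Wild Type, Dnajb4 at -0.46 and Dnajb6 at -0.26 (limma adjusted p = 0.011 and 0.0359). Dnajb6 averaged only 5.84 in Mdr2-KO and 6.10 in Wild Type, near the background of 5.48. The Dnajb6 call was lost after quantile normalization, after centring arrays on their medians, in a fit of the 2 groups only and when any of 5 single arrays was left out (adjusted p up to 0.134). None passed in the other 2 comparisons, where the largest were Dnajc21 at -0.29 in the double knockout against Wild Type and Dnajb4 at 0.18 between the knockouts (limma adjusted p = 0.0902 and 0.219). Of the 7 other small heat shock proteins, none was higher in any comparison. Hspb6, abundant in muscle, was lower than in Wild Type, at -0.48 in the double knockout and -0.39 in Mdr2-KO (limma adjusted p = 0.0175 and 0.0417), the lens crystallin Cryaa was lower in Mdr2-KO, at -0.24 (limma adjusted p = 0.0353), and between the knockouts the largest was Cryab at 0.27 (limma adjusted p = 0.178). The Hspb6 call in Mdr2-KO was lost after median centring and when any of 8 single arrays was left out (adjusted p up to 0.2), and that in the double knockout without Wild Type array 1 or 3 (adjusted p up to 0.1). Cryaa averaged only 5.89 in Mdr2-KO and 6.13 in Wild Type, also near background. The Cryaa call was lost after quantile normalization, in a fit of 2 groups only and when any of 5 single arrays was left out (adjusted p up to 0.165).

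In other compartments, the mitochondrial chaperones had 5 of 10 higher and 1 lower in Mdr2-KO than in Wild Type, including Hspe1 at 0.47, Lonp1 at 0.47 and Grpel1 at 0.43 (limma adjusted p = 0.0123, 0.00726 and 0.0359). The call of Grpel1, like those of Hspa2 and Cryaa above, did not hold without the 2 arrays of high neutrophil markers. Hspd1, the mitochondrial HSP60, was lower in the double knockout, at -0.45 against Wild Type and -0.28 against Mdr2-KO (limma adjusted p = 0.00222 and 0.0264), while the protease subunit Clpp was higher there than in Mdr2-KO, at 0.26 (limma adjusted p = 0.0371). The endoplasmic reticulum list had 4 of 14 higher in Mdr2-KO than in Wild Type, with Hyou1 at 0.70, Manf at 0.58 and Pdia6 at 0.57 (limma adjusted p = 0.00319, 0.0098 and 0.00427). None of that list passed in the double knockout against Wild Type, where Hyou1 was at 0.42 (limma adjusted p = 0.0527), and between the knockouts Sdf2l1 was lower, at -0.63 (limma adjusted p = 0.0146, and 0.0591 without the 2 arrays of high neutrophil markers).

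Among 5 other heat shock factors and regulators, Hsf2 was lower in the double knockout than in Wild Type, at -0.29 (limma adjusted p = 0.0303), and no other call was made. The Hsf2 call was lost when any of 6 single arrays was left out (adjusted p up to 0.125) and without both arrays of high neutrophil markers (adjusted p of 0.053). The largest values elsewhere in that list were -0.17 for Hsf2bp, seen in Mdr2-KO against Wild Type, and -0.18 for Hsf2, seen between the knockouts (limma adjusted p = 0.158 and 0.119). Of 12 measured genes of a further list of heat-induced genes, which shares members with the lists above, 2 were higher in Mdr2-KO than in Wild Type (Fkbp4 and Hspe1). The double knockout had 1 higher and 1 lower than Wild Type, and 1 higher and 3 lower than Mdr2-KO. Atf3, a stress transcription factor, was the higher one both times, averaging 7.82 in Mdr2-KO/IL6-KO, 7.08 in Mdr2-KO and 7.01 in Wild Type (0.81 against Wild Type and 0.74 against Mdr2-KO, limma adjusted p = 0.0388 and 0.0396), and neither call held without the 2 arrays of high neutrophil markers.

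**Figure D4:**
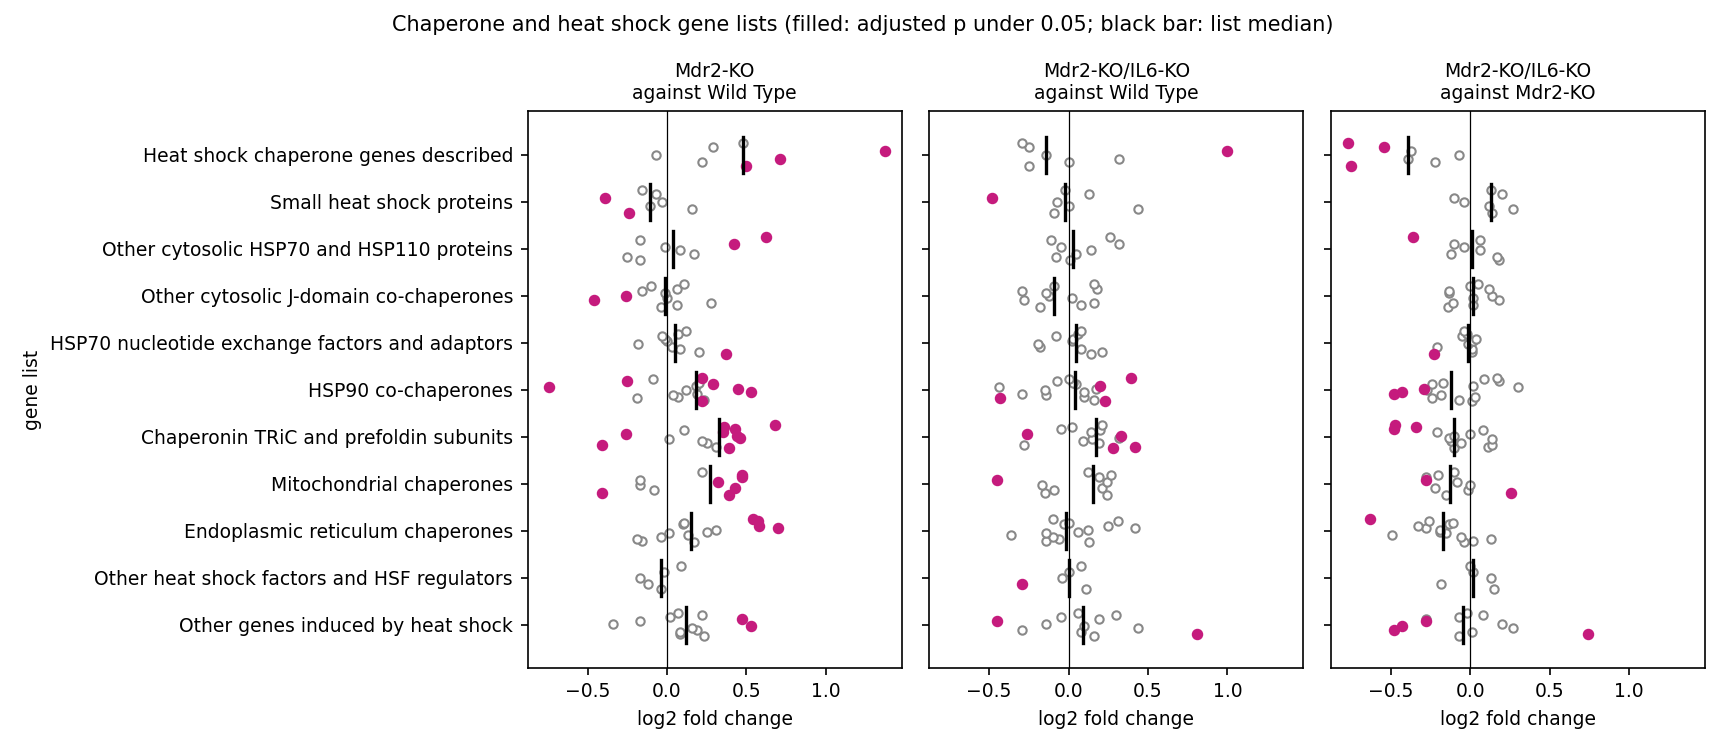
Log2 fold change of each gene in the 10 chaperone and heat shock lists and in the 7 measured chaperones described here, for the 3 comparisons; points are genes, filled where the adjusted p is under 0.05, and the black bar is the list median. TRiC and prefoldin (median 0.33) and the mitochondrial list (median 0.27) lie to the right in Mdr2-KO against Wild Type, as do the 7 chaperones (median 0.48).

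Markers of other cells also differed between the knockout groups and Wild Type. Over all genes 8.89% were called higher and 12.1% lower in Mdr2-KO than in Wild Type, and 6.96% and 5.33% in the double knockout. Of 9 cholangiocyte markers, 6 were higher in the double knockout and 5 in Mdr2-KO than in Wild Type, and their mean ran from 6.73 to 7.63 per array in Mdr2-KO/IL6-KO, 6.70 to 7.60 in Mdr2-KO and 6.00 to 6.49 in Wild Type. Of 10 macrophage markers 5 were higher in each knockout, with means of 9.17 to 9.44 in Mdr2-KO/IL6-KO, 8.90 to 9.42 in Mdr2-KO and 8.43 to 8.73 in Wild Type. The list did not move as a whole, since 4 of its markers were negative in each knockout, none of them called. Of 9 stellate cell and fibroblast markers 5 were higher in the double knockout and 4 in Mdr2-KO, with means of 8.08 to 8.80 in Mdr2-KO/IL6-KO, 7.90 to 8.70 in Mdr2-KO and 7.69 to 7.89 in Wild Type. In that list 2 were negative in the double knockout and 3 in Mdr2-KO, none of them called. Of the lymphocyte markers, 3 of 6 for T cells and 2 of 3 for B cells were lower in each knockout than in Wild Type. Their part in the Hspb1, Hsp90aa1 and Dnaja1 differences from Wild Type was not tested. Between the knockouts no marker of any of the 9 cell type lists passed, although all 5 neutrophil markers were negative there, with a median of -0.32. The part of any cell type in the Dnaja1, Hsph1 and Hspb8 differences between the knockouts was not tested either.

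The genes most like each of the 3 most variable members were found by the mean absolute difference of gene-centred log2 values over the 14 arrays. Nearest to Dnaja1 were Gcsh (0.105), Top1 (0.128), Rab18 (0.13), Pcca (0.131) and Casd1 (0.135), against a median of 0.369 over all genes. Nearest to Hsph1 were Pter (0.189), Dnaja1 (0.193), Selenok (0.205), Syvn1 (0.207) and Slc22a30 (0.209), against a median of 0.424. Dnaja1 is thus the second nearest gene to Hsph1 of all tested. For Hspb1 the nearest named genes were Abtb2 (0.309), Abcb1b (0.312), Ugt2b5 (0.313), Plekhf1 (0.314) and Tex2 (0.317), against a median of 0.524. The mean absolute deviation of the gene itself was 0.49 for Hspb1, 0.376 for Hsph1 and 0.318 for Dnaja1. By this measure no named gene lay close to Hspb1. The measure is not scaled, so a gene with a like pattern but another amplitude counts as unlike.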

How the data were processed

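Total RNA from liver was labelled as biotinylated cRNA and hybridised to Affymetrix gene arrays, per the labels' protocols. The deposited log2 values were made with Partek and RMA, per the submitters' processing notes; no source used here gives versions, genome build or pooling. RMA removes background, equalises array distributions and summarises probes, which compresses differences of dim genes. Of 35557 probes 21789 name 1 gene, and the probe of highest mean stood for each of 19938 genes. All 14 arrays entered 1 fit with a mean per genotype in limma 3.58.1 (R 4.3.3) with empirical Bayes moderation, 2-sided tests and Benjamini-Hochberg adjustment over all genes, at an adjusted p of 0.05. Probe comparisons come from the same fit over every probe. No batch is given, and group sizes of 6, 5 and 3 limit precision.

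On simulated data of the same sizes (19938 genes, 200 seeded), changes of 0.5 log2 units were recovered at 66% (Mdr2-KO against Wild Type), 73% (the double knockout against Wild Type) and 84% (double against single knockout). Far more genes were called in the data than were seeded. The simulated noise was independent for each gene and array, and no array was made to stand apart. The rates may therefore not hold for the tests on these data.

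The members, lists and tests were chosen with earlier results of these data known. Named genes were all members, Abcb4, Il6, up to 3 called genes per list and comparison (the largest value where none was called), and the 5 genes most like each of 3 members. Hspa1a, the shared probes, and the pair of alternatives that used every probe or left out both arrays of high neutrophil markers were chosen after seeing the data. The planned comparison of protein sequences was not made here.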

Additional observations from a re-analysis of the deposited data

How the results depend on the processing

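No called fold change of the 7 chaperones reversed under quantile normalization, median centring, a filter on dim genes (13292 kept), probe means, trend and robust moderation, array weights, fits of 2 groups only, left-out arrays, or the additions made after seeing the data. With 1 array left out in turn, the chaperones called numbered 2 to 4 for Mdr2-KO against Wild Type, 0 to 1 for the double knockout against Wild Type and 1 to 4 between the knockouts, and all genes called 2140 to 4507, 1635 to 2544 and 754 to 2164. The lowest of these, 2140 without Wild Type array 3 and 754 without Mdr2-KO array 1, stand against 4189 and 1746 with all arrays, and 932, 999, 1055 and 1045 were called between the knockouts without Mdr2-KO arrays 3 and 4 and Mdr2-KO/IL6-KO arrays 4 and 5. Without both arrays of high neutrophil markers, 1 chaperone and 687 genes were called between the knockouts. Hspb8 between the knockouts also missed the threshold with trend and robust moderation, with 2 groups only and over every probe. The Hspb1, Hsp90aa1 and Dnaja1 differences kept their calls in Mdr2-KO against Wild Type under every alternative except Dnaja1 without Wild Type array 3. These alternatives do not include the second Dnaja1 probe by itself, which did not pass. The cause of these changes was not tested. No paired analysis was possible because the labels give the groups no shared replicate numbers.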
